A study of Mus musculus with 4 samples.

Results

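The naive pluripotency transcription factors are the 10 genes Nanog, Esrrb, Klf2, Klf4, Klf5, Tbx3, Nr5a2, Prdm14, Zfp42 and Tfcp2l1, chosen by name from the 41543 gene symbols counted. All 10 had a row in each count table and all 10 were abundant enough to be tested. They were measured by RNA-seq in E14TG2a mouse embryonic stem (ES) cells, a line grown here on gelatin in serum with the cytokine LIF. Of the 4 libraries, 2 came from KAT6A KO cells, in which the histone acetyltransferase KAT6A had been knocked out by CRISPR/Cas9 editing, and the other 2 from Control cells of the same line. The labels state neither where the gene was edited nor if replicates were grown separately or stem from 1 clone, so each p-value reflects the scatter of these 4 libraries alone, possibly technical in origin.

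ES cells in this medium renew themselves while a set of transcription factors keeps them in a naive state, resembling the epiblast of the preimplantation embryo. LIF acts through the kinase JAK and the factor STAT3 to induce Klf4 and Tfcp2l1, WNT signalling acts on Esrrb by relieving repression by TCF7L1, and ERK signalling drives cells out of the state. The factors bind many of the same enhancers and partly replace one another, so that ES cells tolerate the loss of several of them singly.

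Libraries held 27494041 to 37354623 counts. The targeted gene does not check the labels: Kat6a had 242 and 86.4 CPM (counts scaled to library size, with TMM factors for composition) in the libraries with the labels KAT6A KO repl1 and repl2 (KO 1 and KO 2 below), and 145 and 143 CPM in the Control libraries. All directions given here take the labels at their word. The KO pair also lay farther apart than the Control pair, with an SD over genes of the log2 CPM difference of 0.46 in the KO pair and 0.26 in the Control pair. The cells expressed the core ES cell genes. Pou5f1, the POU factor at the centre of the network, had 752 and 1010 CPM in the KO libraries and 610 and 622 CPM in the Control libraries, and Sox2, its partner, 542 and 511 CPM in the KO libraries and 447 and 492 CPM in the Control libraries. Neither passed the test (edgeR adjusted p = 0.059 and 0.24). For Pou5f1 this depended on the processing. It passed with DESeq2 (adjusted p = 0.0084) and the edgeR likelihood ratio test (adjusted p = 0.0095). It did not pass with limma-voom (adjusted p = 0.055) or a GC-content offset (edgeR adjusted p = 0.088).

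Per exon length, Zfp42 was the most abundant of the 10 factors in both groups and Prdm14 the scarcest. CPM per kb of annotated exon was 473 ± 52.8 for Zfp42 in KO libraries and 416 ± 4.40 in Control libraries (SD, n = 2 each). It was 2.96 ± 0.0346 for Prdm14 in KO libraries and 2.98 ± 0.247 in Control libraries (SD, n = 2 each). The order in the KO libraries was Zfp42, Esrrb, Nanog, Klf2, Klf4, Klf5, Tfcp2l1, Tbx3, Nr5a2 and Prdm14. In the Control libraries Nanog stood before Esrrb, and the order was otherwise the same. No neighbours in the Control order overlapped in their 2 libraries. In the KO order Nanog overlapped Klf2, Klf4 overlapped Klf5 and Klf5 overlapped Tfcp2l1. These levels depend on the exon lengths of the annotation, since the transcripts used by the cells were not resolved. Reads were plentiful for 9 of the factors, with at least 3614 counts in every library, while Prdm14 had 207 to 300.

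Of the 10 factors, 3 were called higher in the KO libraries (Esrrb, Tbx3 and Tfcp2l1) and none lower at an adjusted p under 0.05 (quasi-likelihood test of edgeR, adjusted by Benjamini-Hochberg over 16112 genes). At an unadjusted p under 0.05, 4 were higher and none lower, while 5455 of the 16112 tested genes passed in either direction. DESeq2 also called none lower. At the adjusted threshold, 5.76% of all tested genes were called higher and 8.57% lower by edgeR. Of the 1381 genes called lower, 536 lie on chromosome 11, which holds none of the factors. Among the tenth of genes with the highest mean CPM, to which 8 of the factors belong, 7.82% were called higher and 11.7% lower. The median log2 fold change of the 10 factors was 0.15, against 0.01 over all tested genes, and 8 of the 10 had a fold change above 0. Counts of calls rested on single libraries: the number of factors called changed when any library was left out, and so did the number over all genes. With 1 library left in a group the spread came from the other pair alone, so such counts cannot be set against these shares. In 5 of the factors both KO libraries stood above both Control libraries, as in 31.5% of all tested genes, and in none did both stand below, as in 32.8% of all. Summed over the factors, the level was 5158 and 5086 CPM in the KO libraries against 4070 and 4109 CPM in the Control libraries, and Esrrb and Tfcp2l1 supplied most of that difference. In bulk RNA, fewer cells of a type and less RNA per cell cannot be told apart.

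**Figure D1:**
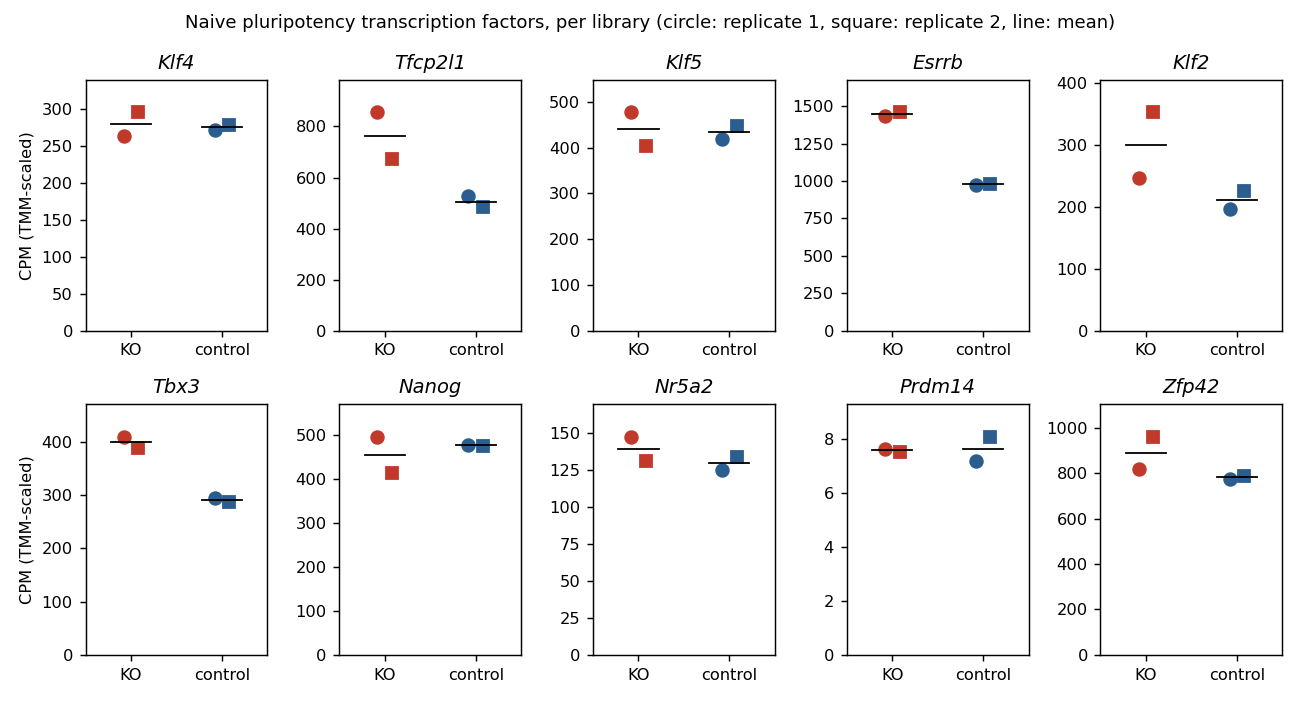
TMM-scaled CPM of each factor by library, with KO on the left and Control on the right of each panel, circles for replicate 1, squares for replicate 2 and a line at the mean; every y axis starts at 0. Esrrb sits at 1435 and 1460 CPM in KO and at 977 and 980 CPM in Control, while the KO points of Nanog lie on either side of its Control points.

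The promoters of the factors differ widely in CpG dinucleotides, the sequence feature that the series' title ties to KAT6A, so the windows of 2 called factors, Esrrb and Tfcp2l1, are shown with those of Klf2 and Nanog, which were not called. The RefSeq promoter table (GRCm38.p6) held 10 windows for 7 of the 10 factors, each running from 250 bases before to 50 bases after an annotated start. Klf5, Tbx3 and Prdm14 have no window here. Each sequence is printed 5′ to 3′ on the gene's strand, with CpG in capitals: Esrrb at chr12:86360867-86361166 (+ strand), Tfcp2l1 at chr1:118627695-118627994 (+ strand), Klf2 at chr8:72318812-72319111 (+ strand) and Nanog at chr6:122707239-122707538 (+ strand).
Esrrb: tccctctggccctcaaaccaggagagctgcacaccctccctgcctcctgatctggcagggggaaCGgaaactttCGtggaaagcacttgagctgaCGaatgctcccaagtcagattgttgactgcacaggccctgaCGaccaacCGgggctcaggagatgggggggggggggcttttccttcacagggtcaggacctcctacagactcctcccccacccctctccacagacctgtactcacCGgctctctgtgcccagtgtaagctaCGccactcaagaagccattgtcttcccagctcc
Tfcp2l1: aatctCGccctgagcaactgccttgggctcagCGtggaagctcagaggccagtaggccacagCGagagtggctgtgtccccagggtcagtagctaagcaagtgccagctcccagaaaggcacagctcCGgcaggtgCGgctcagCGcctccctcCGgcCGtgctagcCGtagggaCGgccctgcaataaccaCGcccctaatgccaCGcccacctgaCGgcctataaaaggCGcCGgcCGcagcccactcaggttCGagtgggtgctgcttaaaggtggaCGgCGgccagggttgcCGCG
Klf2: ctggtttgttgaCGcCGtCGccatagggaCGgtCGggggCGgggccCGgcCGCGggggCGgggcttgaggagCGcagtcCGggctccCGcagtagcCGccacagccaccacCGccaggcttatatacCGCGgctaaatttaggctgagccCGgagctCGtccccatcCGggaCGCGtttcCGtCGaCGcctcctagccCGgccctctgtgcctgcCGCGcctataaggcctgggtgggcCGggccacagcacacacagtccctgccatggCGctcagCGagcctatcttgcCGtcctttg
Nanog: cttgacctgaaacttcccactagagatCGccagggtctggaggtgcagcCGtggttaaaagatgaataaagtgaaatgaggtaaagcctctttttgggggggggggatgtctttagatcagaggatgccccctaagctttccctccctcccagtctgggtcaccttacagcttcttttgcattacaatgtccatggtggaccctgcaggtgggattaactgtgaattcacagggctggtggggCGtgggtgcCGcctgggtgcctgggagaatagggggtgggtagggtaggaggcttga
The Esrrb window held 7 CpG, the median of all 32851 windows in the table, and the Tfcp2l1 window 21. The Klf2 window held 32, more than 90.5% of all windows, and the Nanog window 4. Klf4, not printed, had the most at 40, Zfp42 had 11, and the Nr5a2 windows had 2 and 7. In CpG count Tfcp2l1 thus stood below Klf2 and Klf4 and above Zfp42, Nanog and Nr5a2, none of which was called. Esrrb stood below Klf2, Klf4 and Zfp42 and above Nanog. A link between CpG count and the calls was not tested. On either strand the GC box GGGCGG was found 4 times in the Klf4 window and 2 times each in those of Klf2 and Zfp42, against 35.7% of all windows with at least 1. The octamer part TTTGCAT, the POU side of the POU and SOX composite element, was found in the Nanog windows and in the Zfp42 window, against 4.63% of all windows. The nuclear receptor site AAGGTCA, which ESRRB and NR5A2 bind, was found in none of the 10 windows, against 4.72% of all. These matches describe letters only.

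Among the targets of LIF and STAT3, Tfcp2l1 was higher and Klf4 and Klf5 were not called. Tfcp2l1 encodes a grainyhead-family factor that can sustain self-renewal when STAT3 is not active. It had 855 and 672 CPM in KO 1 and KO 2 and 526 and 484 CPM in Control replicates 1 and 2. Both KO libraries stood above both Control libraries, and KO 1 stood well above KO 2. The gene spans 118627945 to 118685168 on chromosome 1 (GRCm38, GENCODE M21) and its log2 fold change was 0.60 ± 0.13 (SE), a 1.51-fold rise, with an edgeR adjusted p of 0.032. The log2 fold change was 0.76 without KO 2 and 0.41 without KO 1, and the call ended without Control replicate 2 (edgeR adjusted p = 0.12).

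Klf4, a zinc finger factor of the Krüppel-like family and one of the classical reprogramming factors, had 264 and 295 CPM in KO 1 and KO 2 and 271 and 279 CPM in the Control libraries. The groups overlapped, with KO 1 lowest and KO 2 highest of the libraries. The log2 fold change was 0.02, with a 95% interval of -0.19 to 0.24 (edgeR adjusted p = 0.87). Klf5, a relative that acts in the trophectoderm and the inner cell mass, had 477 and 404 CPM in KO 1 and KO 2 and 420 and 448 CPM in the Control libraries. Here KO 1 was the highest library and KO 2 the lowest. The log2 fold change was 0.02, with a 95% interval of -0.23 to 0.27 (edgeR adjusted p = 0.90). It was 0.13 without KO 2 and -0.10 without KO 1.

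Esrrb showed the tightest rise of the 10. It encodes an orphan nuclear receptor that occupies many enhancers with NANOG and can stand in for it in self-renewal. The gene spans 86361117 to 86521628 on chromosome 12. It had 1435 and 1460 CPM in KO 1 and KO 2 and 977 and 980 CPM in the Control libraries. The gap between the groups was many times the distance within either pair. The log2 fold change was 0.56 ± 0.08 (SE), or 1.48-fold, with an edgeR adjusted p of 0.013. It lay between 0.55 and 0.58 when any library was left out, but the call ended without Control replicate 1 (edgeR adjusted p = 0.12) or Control replicate 2 (edgeR adjusted p = 0.11).

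Tbx3, a T-box factor that sustains Nanog expression downstream of PI3K signalling, was also higher. It had 410 and 389 CPM in KO 1 and KO 2 and 294 and 288 CPM in the Control libraries, with no overlap between the groups. The gene spans 119670669 to 119684724 on chromosome 5, and its log2 fold change was 0.46 ± 0.08 (SE), or 1.37-fold (edgeR adjusted p = 0.019). The call ended without Control replicate 1 (edgeR adjusted p = 0.19) or Control replicate 2 (edgeR adjusted p = 0.22), with log2 fold changes of 0.47 and 0.44. The antisense gene Tbx3os1 shares 115 exon bases with Tbx3 and had 45 to 76 counts a library, against at least 10462 for Tbx3. No source used here states whether counting used the strand, so reads in the shared bases cannot be assigned with certainty.

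Klf2, whose protein ERK signalling marks for degradation, had 246 and 352 CPM in KO 1 and KO 2 and 196 and 225 CPM in the Control libraries. Both KO libraries stood above the Control libraries, but KO 2 was far above KO 1. The gene spans 72319033 to 72321656 on chromosome 8. Its log2 fold change of 0.51 ± 0.17 (SE), or 1.42-fold, did not pass the test (edgeR adjusted p = 0.096). The value was 0.22 without KO 2 and 0.74 without KO 1, and it was called in both cases (edgeR adjusted p = 5.5e-05 and 1.9e-50), where the spread came from the Control pair alone. It was also called without Control replicate 2 (edgeR adjusted p = 0.04996), with DESeq2 (adjusted p = 0.028) and with the edgeR likelihood ratio test (adjusted p = 0.035). With a GC-content offset it was 0.22 (edgeR adjusted p = 0.27).

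Nanog, the homeobox factor whose level sets how firmly ES cells hold the naive state, was not called. It had 496 and 415 CPM in KO 1 and KO 2 and 478 and 476 CPM in the Control libraries, so that KO 1 was above both Control libraries and KO 2 below both. The log2 fold change was -0.07, with a 95% interval of -0.32 to 0.19 (edgeR adjusted p = 0.69). Without KO 1 it was -0.20 and without KO 2 it was 0.05, in fits whose spread came from the Control pair alone. Set against Nanog in the same library, which needs no scaling between libraries, the per-length level of Esrrb was 1.07 and 1.31 times that of Nanog in KO 1 and KO 2 and 0.758 and 0.763 times in the Control libraries. The same ratio for Tbx3 was 0.280 and 0.318 in KO 1 and KO 2 and 0.208 and 0.205 in the Control libraries, and for Tfcp2l1 0.409 and 0.385 in KO 1 and KO 2 and 0.261 and 0.242 in the Control libraries. None of these ratios overlapped between the groups, but neither did those of Klf2, Klf5 and Nr5a2, which were not called. All the ratios share Nanog as divisor, so they are not independent of one another. Nanog had 221 and 185 CPM per kb in KO 1 and KO 2 and 213 and 212 in the Control libraries. The share of all tested genes without overlap in this ratio was not computed. For Klf5 the ratio was 0.414 and 0.420 in KO 1 and KO 2 and 0.379 and 0.406 in the Control libraries. A difference in fold change between the factors was not tested.

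The remaining 3 factors were not called. Nr5a2, a nuclear receptor that binds the Pou5f1 promoter, had 148 and 131 CPM in KO 1 and KO 2 and 125 and 134 CPM in the Control libraries, with overlapping groups and a log2 fold change of 0.11 (95% interval -0.12 to 0.33, edgeR adjusted p = 0.47). Without KO 2 it was 0.18 and without KO 1 it was 0.02. Prdm14, which restrains FGF signalling and DNA methylation with Polycomb, had 7.66 and 7.53 CPM in KO 1 and KO 2 and 7.20 and 8.10 CPM in the Control libraries. Both KO values fell between the Control values, and the log2 fold change was -0.01 (95% interval -0.38 to 0.35, edgeR adjusted p = 0.97). Counting alone gives Prdm14 a relative error of 6.95% in the library with the fewest counts. Its interval is not set by low counts alone, since that of Klf2, with at least 6951 counts, was wider (0.09 to 0.92).

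Zfp42, also known as Rex1, is a zinc finger gene related to Yy1 whose expression is a common reporter of the naive state. It had 820 and 960 CPM in KO 1 and KO 2 and 776 and 788 CPM in the Control libraries. The groups did not overlap, but KO 1 lay closer to the Control libraries than to KO 2. The log2 fold change was 0.19 (95% interval -0.06 to 0.43, edgeR adjusted p = 0.24). It was 0.30 without KO 1 and 0.07 without KO 2. Processed pseudogenes of Nanog and Zfp42 are annotated in GENCODE M21, so reads of these genes may have been split or dropped in the counting.

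**Figure D2:**
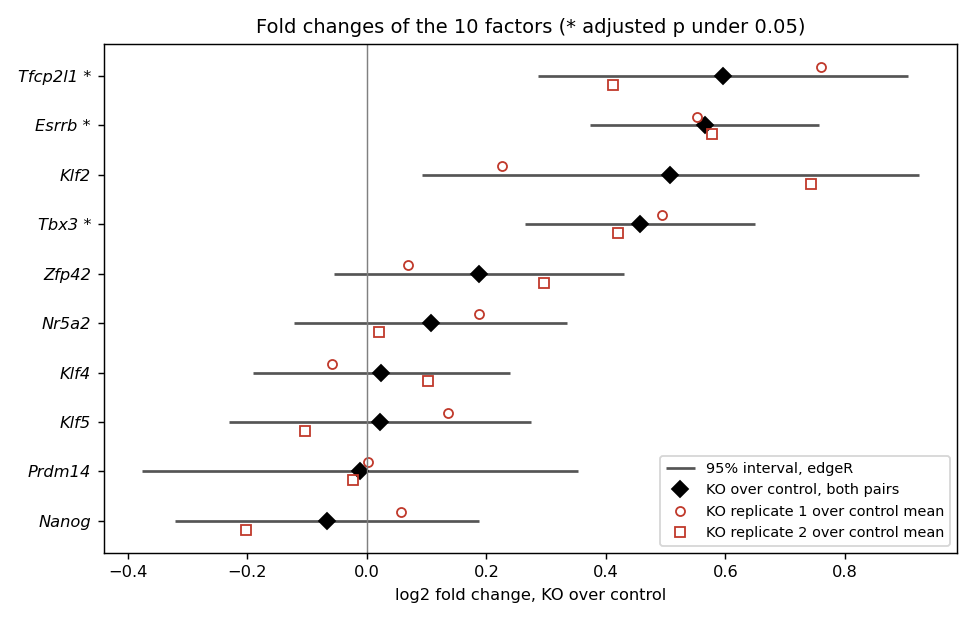
Log2 fold change of each factor, KO over Control (diamonds), with the 95% interval from edgeR (lines) and each KO library over the Control mean (open circle KO 1, open square KO 2). The intervals of Tfcp2l1, Esrrb, Tbx3 and Klf2 lie above 0, and Klf2 is not called after adjustment; its KO libraries stand at 0.23 and 0.74.

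The 2 KO libraries differed from each other by amounts that varied among the factors. KO 1 exceeded KO 2 by 0.35 on the log2 scale for Tfcp2l1, 0.26 for Nanog, 0.24 for Klf5 and 0.17 for Nr5a2. The opposite held for Klf2 (-0.52), Zfp42 (-0.23) and Klf4 (-0.16). Esrrb (-0.02), Prdm14 (0.02) and Tbx3 (0.07) were nearly equal in the pair. Between the Control libraries the same difference ran from -0.20 for Klf2 to 0.12 for Tfcp2l1. The difference within the KO pair also moved with the GC content of transcripts over all tested genes. In the lowest quintile by GC content the median log2 ratio to the Control mean was -0.12 in KO 1 and -0.34 in KO 2, and in the highest it was 0.14 in KO 1 and 0.29 in KO 2. Tfcp2l1, Nanog, Klf5 and Nr5a2, higher in KO 1, lie in the 2 lowest quintiles, and Klf2 and Klf4, higher in KO 2, in the 2 highest. Zfp42, in the second lowest, was higher in KO 2. The part of GC content in these differences was not tested.

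In the authors' deposited table, which comes from DESeq2, 4 of the 10 factors have an adjusted p under 0.05, all with a positive log2 fold change. The authors' deposited table gives 0.55 for Esrrb, 0.56 for Tfcp2l1, 0.44 for Tbx3 and 0.47 for Klf2, with adjusted p of 2.6e-05, 0.00045, 0.0016 and 0.019. The other 6 have adjusted p between 0.34 and 0.99 in the authors' deposited table. The share of all genes called in that table was not computed. When DESeq2 was run here on the counts, 1114 of 16112 tested genes were called higher and 1517 lower.

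Fold changes over all genes moved with the GC content of the transcripts, and the factors lie at both ends of that scale. The median log2 fold change was -0.22 in the lowest quintile of tested genes by GC content and 0.23 in the highest. Klf2 (61.6% GC) lies in the highest quintile. Esrrb (54.9%), Klf4 (54.6%) and Tbx3 (54.2%) lie in the next, where the median was 0.11, and Tfcp2l1 (47.0%), Klf5 (47.9%), Zfp42 (46.4%) and Nanog (45.8%) in the second lowest, where it was -0.07. Prdm14 lies in the middle quintile, and Nr5a2 (43.2%) is the only factor in the lowest. With an offset that removes this trend, Esrrb had a log2 fold change of 0.45, Tbx3 0.36 and Tfcp2l1 0.65, and all 3 were still called (edgeR adjusted p = 0.014, 0.035 and 0.018). Nr5a2 had 0.27 with the offset, against 0.11 without it, and was not called (edgeR adjusted p = 0.060). None of the factors lies on chromosome 11, whose genes were lower by a median log2 fold change of -0.46. The medians of the chromosomes that hold them ran from -0.02 (chromosome 1) to 0.09 (chromosome 8).

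**Figure D3:**
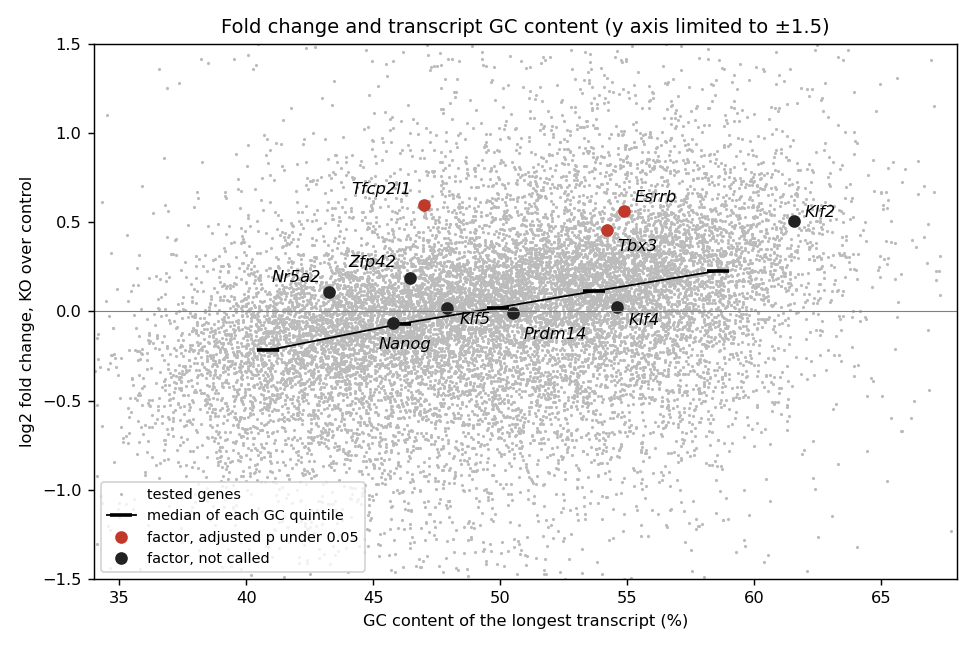
Log2 fold change, KO over Control, against the GC content of each gene's longest transcript for tested genes (grey, those outside the axes not drawn), with the median of each quintile of genes by GC content (black bars) and the 10 factors labelled (red where called, black where not). Tfcp2l1 stands above the median of its GC quintile, which is -0.07, while Nanog lies on the line of medians.

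By the distance between centred log2 CPM profiles over the 4 libraries, the gene most like Esrrb was Rasgrp4, an exchange factor for RAS (distance 0.025). The gene most like Tbx3 was Csnk1e, a casein kinase of WNT and clock signalling (0.026), and the one most like Tfcp2l1 was Igsf9b, a cell adhesion protein (0.030). With 4 libraries in 2 groups such likeness is common: 80, 124 and 32 of 13535 genes lay within 0.1 of Esrrb, Tbx3 and Tfcp2l1.

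Upstream of the factors, most genes of the LIF pathway were not called. Of 12 tested, 1 was called higher and 2 lower, with a median log2 fold change of -0.02, against 5.76% called higher and 8.57% lower over all tested genes, so that these counts lie near the background. Stat3, on chromosome 11, had 252 and 260 CPM in the KO libraries and 376 and 377 CPM in the Control libraries, and fell by 0.55 on the log2 scale (edgeR adjusted p = 0.013). Its call ended without Control replicate 1 or 2, at -0.56 and -0.55. On that chromosome 536 of 1322 tested genes were called lower, with a median of -0.46. Lifr, the LIF receptor chain, fell by 0.34 (edgeR adjusted p = 0.039), and Pim3, a kinase gene induced by STAT3, rose by 0.56 (edgeR adjusted p = 0.049). With an offset for GC content both calls ended, at -0.20 for Lifr and 0.27 for Pim3 (edgeR adjusted p = 0.10 and 0.11), and that of Lifr also ended with upper-quartile factors (-0.31, edgeR adjusted p = 0.051). Tfcp2l1 rose, and Klf4 was not called, in libraries with less Stat3 RNA. Of 11 tested WNT genes, 1 rose and 1 fell, with a median of -0.02, which is likewise near the background of 5.76% and 8.57%. Tcf7l1, the repressor of Esrrb, was not called at a log2 fold change of 0.04, the most abundant gene Ctnnb1 had -0.02, and Tcf7 on chromosome 11 fell by 0.48 (edgeR adjusted p = 0.034). Cdx1, a homeobox gene activated by WNT, had 2.33 and 0.909 CPM in KO 1 and KO 2 and 0.225 and 0.216 CPM in the Control libraries, and rose by 2.87 (edgeR adjusted p = 0.026). It rose by 2.03 without KO 1.

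Of 14 tested genes of the FGF and ERK arm, 2 rose and 1 fell, with a median of 0.09, against 5.76% and 8.57% of all tested genes. Etv5 and the receptor gene Fgfr1 rose by 0.37 and 0.36 (edgeR adjusted p = 0.039 and 0.049) and the immediate-early gene Egr1 fell by 0.68 (edgeR adjusted p = 0.027). Fgfr1 was no longer called with the GC offset, at 0.24 (edgeR adjusted p = 0.17). Of 13 repressors and exit factors, 1 rose and 1 fell, again near the background. The Polycomb partner gene Jarid2 rose by 0.41 (edgeR adjusted p = 0.027), and Fnip1, a partner of folliculin on chromosome 11, fell by 0.78 (edgeR adjusted p = 0.010).

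Downstream, 6 of 17 other naive marker genes rose and 1 fell, with a median of 0.31, against 5.76% and 8.57% of all tested genes. Spp1, which encodes osteopontin, had 418 and 387 CPM in the KO libraries and 243 and 231 CPM in the Control libraries, a log2 fold change of 0.76 ± 0.09 (SE, edgeR adjusted p = 0.0092). Mybl2, a cell cycle factor, rose by 0.76 (edgeR adjusted p = 0.012). Dppa3, a maternal factor that marks the most naive ES cells, went against them with 1.68 and 1.56 CPM in the KO libraries and 9.37 and 9.21 CPM in the Control libraries, a fall of 2.52 (edgeR adjusted p = 0.0050). Of 10 core pluripotency genes, 1 rose and none fell, near the background of 5.76% and 8.57% of all tested genes. Their median was 0.21, and the gene that rose was Sall4, a zinc finger partner of POU5F1, by 0.50 (edgeR adjusted p = 0.017).

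Of 19 genes of the formative and primed states none rose and 1 fell, with a median of 0.09, against a background of 5.76% and 8.57%. The fall was that of Lin28b, a let-7 inhibitor, by 0.74 (edgeR adjusted p = 0.024). Otx2 (0.09), Fgf5 (0.27) and Pou3f1 (-0.36), which define exit from the naive state, were not called. They were chosen after their values were seen.

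Of 14 partners and cofactors of the factors, 3 rose and 1 fell, with a median of 0.19, against 5.76% and 8.57% of all tested genes. The corepressor gene Rcor2 rose by 0.63 (edgeR adjusted p = 0.024), Wdr5 by 0.58 (edgeR adjusted p = 0.015) and Arid1a by 0.33 (edgeR adjusted p = 0.047). The Mediator gene Med1 on chromosome 11 fell by 0.49 (edgeR adjusted p = 0.016), near the median of -0.46 on that chromosome. Of 26 tested paralogs of the factors, 3 rose and 3 fell, with a median of 0.12, close to the background of 5.76% and 8.57%. Klf15 rose by 0.65 (edgeR adjusted p = 0.049), Klf11 by 0.58 (edgeR adjusted p = 0.015) and Klf10 by 0.41 (edgeR adjusted p = 0.031). Prdm1 fell by 0.77 (edgeR adjusted p = 0.017), Klf6 by 0.74 (edgeR adjusted p = 0.0083) and Grhl3 by 0.54 (edgeR adjusted p = 0.043). Arid1a, Klf10 and Grhl3 were chosen after their values were seen. Their calls were not followed under the alternatives, and they are not among the 31 genes counted next. Of the 31 called genes named for these lists and for the markers of other cells, 16 lost the call without Control replicate 1 and 13 without Control replicate 2. With the GC offset 5 lost it: Lifr, Pim3, Fgfr1, Klf15 (0.53, edgeR adjusted p = 0.058) and the neuroectoderm marker Sox1 (0.88, edgeR adjusted p = 0.061). Without KO 2 Pim3 was 0.35 and Klf15 0.43.

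All 12 tested markers of primitive endoderm had a negative log2 fold change, with a median of -1.51. Of these markers 8 were called lower, among them Pdgfra (-1.96) and Gata6 (-1.94), against 8.57% of all tested genes. The summed level of the 12 markers was 1216 and 2397 CPM in KO 1 and KO 2 and 5115 and 4886 CPM in the Control libraries, and none was at 0. Of 10 tested trophoblast markers 6 were called lower, among them Plac1 (-4.53) and Hand1 on chromosome 11 (-3.15), against the same 8.57%. Plac1 had only 2 and 1 counts in KO 1 and KO 2 and 39 and 54 in the Control libraries. The 4 not called were Eomes (-0.05), Tfap2c (-0.04), Ascl2 (-0.30) and Cdx2 (-1.34). Summed levels of the trophoblast markers were 108 and 162 CPM in KO 1 and KO 2 and 280 and 281 CPM in the Control libraries. Of 8 tested markers of 2-cell-like cells 7 rose, among them Duxf3 (2.35) and Zscan4c (2.26), against 5.76% of all tested genes. Sums of the 2-cell-like markers were 29.8 and 23.3 CPM in KO 1 and KO 2 and 9.68 and 8.61 CPM in the Control libraries.

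Markers of mesoderm and of fibroblasts had no calls among 4 and 3 tested. Their most abundant members were Pdgfrb (0.16) and Thy1 (0.46), and Msgn1 and Lum were at 0 counts in every library. Mesoderm sums were 14.0 and 13.5 CPM in the KO libraries and 12.1 and 11.7 CPM in the Control libraries, and fibroblast sums were 22.6 and 19.9 CPM in the KO libraries and 15.5 and 16.5 CPM in the Control libraries. Of 5 neuroectoderm markers 3 rose, among them Sox1 (1.03) and Neurod1 (0.84), and Nes fell (-0.96), against 5.76% and 8.57% of all tested genes. Neuroectoderm sums were 120 and 106 CPM in the KO libraries and 78.3 and 86.3 CPM in the Control libraries. The part of any of these cells in the levels of the naive factors was not tested.

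**Figure D4:**
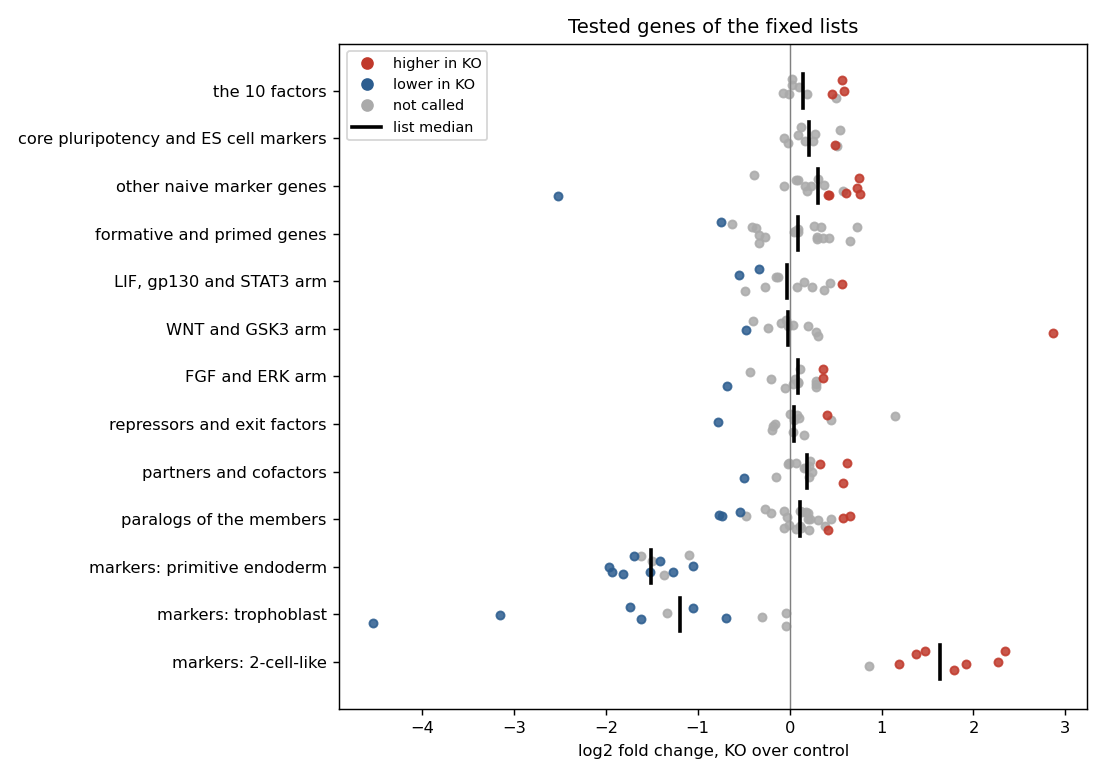
Log2 fold change, KO over Control, of every tested gene in the lists (points, red where called higher, blue where called lower, grey where not called), with a black line at each list's median. The 10 factors have a median of 0.15 and 3 calls, all higher, and the primitive endoderm markers lie wholly below 0.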

How the data were processed

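Polyadenylated RNA of 4 libraries was sequenced after preparation with a strand-specific kit, per the labels' protocols. The deposited tables give raw counts for each symbol as whole numbers. Per the submitters' processing notes, featureCounts and DESeq2 were used. Aligner, genome build, gene models and strandedness of counting: not given in the sources used here. The authors also deposited a table without a header, whose columns were identified from their order and values: a mean normalized count (signal), a log2 fold change with its standard error, a Wald score, a p-value and an adjusted p-value.

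Counts were tested with edgeR 4.0.16 (R 4.3.3): filterByExpr by group (16112 of 41543 symbols, 99.9% of counts), TMM scaling and the robust quasi-likelihood test with group as the only term, with Benjamini-Hochberg adjustment over all tested genes and a threshold of 0.05. Each standard error was computed from the gene's F value, and 95% intervals from the t distribution. The procedure was tested on simulated data. Mean chi-square per gene was 34.4 in the KO pair and 3.70 in the Control pair, so no library was a duplicate. Positions, exon lengths and GC content come from GENCODE M21 (GRCm38), where 97.3% of symbols were found. Python 3.11.15 with pandas 2.3.3 and matplotlib 3.10.9 made the other tables and plots.

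The factors and lists were chosen with earlier results of these data known. Named were the 10 factors, Kat6a, Pou5f1 and Sox2, up to 2 called genes per list and direction with the largest change (the most abundant gene where none was called), and the gene nearest in profile to each called factor among those with a mean of at least 1 CPM. Alternatives were other scalings (RLE, upper quartile, library size only), tests by DESeq2 1.42.0, by limma-voom (limma 3.58.1) and by likelihood ratio, a filter of 1 CPM in 2 libraries or none, an offset for GC content (lowess with span 0.3), the replicate number as a block with and without that offset, and leaving out each library.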

Additional observations from a re-analysis of the deposited data

How the results depend on the processing

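Esrrb, Tbx3 and Tfcp2l1 were called higher under each of the 11 alternatives that kept all 4 libraries, and no factor was called lower there. Klf2 joined them with DESeq2, the likelihood ratio test and the replicate block. Leaving out 1 library gave 1 to 6 factors called higher (3 with all libraries) and 0 to 1 lower. Over all genes 928 were higher and 1381 lower, and leaving out 1 library gave 254 to 4020 higher and 648 to 4400 lower. The likelihood ratio test called 1666 higher and 2175 lower. The replicate numbers do not pair the libraries by the labels. The replicate-number differences of the 2 groups correlated at 0.09 across tested genes, and with the number as a block 1613 genes were higher, 2147 lower and 4 factors higher, Klf2 among them (log2 fold change 0.49, edgeR adjusted p = 0.0029).

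Among the genes named, signs turned for 4 factors near 0 (Nanog, Klf4, Klf5 and Prdm14) and for Kat6a and Pdgfrb. With the GC offset Nanog was 0.025 and Klf4 -0.088, and with the block as well 0.022 and -0.089. Klf5 was -0.00095 with no low-count filter. Prdm14 was 0.022 with upper-quartile factors and 0.0026 by library size only. Leaving out 1 library gave -0.20 to 0.054 for Nanog, -0.063 to 0.10 for Klf4, -0.10 to 0.13 for Klf5, -0.10 to 0.078 for Prdm14, -0.74 to 0.75 for Kat6a and -0.083 to 0.37 for Pdgfrb. Apart from the replicates left out and the alternatives' own construction, the cause was not tested. With 2 libraries a group, the spread between libraries limits the results of the factors other than Prdm14 more than depth does. For Prdm14, with its low counts, the parts of depth and spread were not separated.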

Other observations

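The genes next to the factors on the chromosome did not share one direction. The nearest tested protein-coding gene on each side of each factor was taken, a choice made after the data were seen, and of these 20 genes 2 were called higher and 1 lower (edgeR quasi-likelihood test), against 5.76% and 8.57% of all tested genes. The lower one was Dppa3, which lies 77216 bases from Nanog and fell by 2.52 on the log2 scale beside a Nanog gene that was not called. On the other side of Nanog, Slc2a3, a glucose transporter gene, had 2368 and 2179 CPM in the KO libraries and 2247 and 2152 CPM in the Control libraries. Gli2, a factor of Hedgehog signalling 148963 bases from Tfcp2l1, had 85.7 and 91.4 CPM in the KO libraries and 58.7 and 60.7 CPM in the Control libraries, a log2 fold change of 0.57 (edgeR adjusted p = 0.015). That is close to the 0.60 of Tfcp2l1, while Clasp1 on the other side had 0.05. Vash1, next to Esrrb, rose by 0.73 (edgeR adjusted p = 0.034), and Gpatch2l on the other side had 0.17. Both neighbours of Zfp42 had small positive values short of the threshold, Triml2 at 0.29 and Fat1 at 0.30 (edgeR adjusted p = 0.057 and 0.053).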
